A study of Mus musculus with 18 samples.

Results

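Blood vessels of the mouse medial prefrontal cortex were followed through 37 genes, matched by Ensembl gene identifier among the 54547 identifiers counted in every library. They fall into 3 classes: 18 genes that mark endothelial cells, 10 genes for transporters and receptors of the blood-brain barrier, and 9 genes of mural cells (pericytes and smooth muscle cells). All 37 had at least 1 count, and 29 had enough counts to be tested: 14 endothelial, 10 barrier and 5 mural. The rule that chose them names genes by their known cell type or role and uses no measured value, but it was set with earlier results of these data known.

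The libraries came from C57BL6/J mice, of which 9 ate a control diet and 9 ate PLX5622 chow (1200 mg of the compound per kg). PLX5622 blocks CSF1R, a receptor without whose signal microglia, the macrophages of brain tissue, die. According to the labels the diet was given for 21 days before 44 days of every-other-day drinking of 15% ethanol, and tissue was collected 24 hours after the last ethanol on postnatal day 100. The same treatment text, which names PLX5622, stands on the control libraries too, so ethanol was shared by both groups as far as the labels say and no group without ethanol was compared. The deposited tables all carry the same abbreviation in their names, which no label explains, so what each animal drank could not be checked. Sex, litter and cage are not stated, and whether PLX5622 was still given during drinking is not stated.

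Brain capillaries are lined by endothelial cells joined by tight junctions, so most molecules enter the brain only through carriers and receptors in the endothelial membrane or are pumped back by efflux transporters. Pericytes share the basement membrane with the endothelial cells of capillaries, and smooth muscle cells wrap arterioles. Both kinds of mural cell, together with astrocyte endfeet and Wnt ligands from neural cells, maintain the barrier program of the endothelium.

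Each library held 990136 to 1742680 counts, with a median of 1384979. Values are given as CPM, counts scaled to a library of 1000000 after correction of library sizes by the trimmed mean of M values (TMM), so that 1 CPM is about 1 to 2 reads. Differences were tested with edgeR's quasi-likelihood test and Benjamini-Hochberg adjustment over 11051 genes, and a gene was called at an adjusted p under 0.05. Over all genes 39 were called lower and 5 higher with PLX5622. The 13 tested microglial marker genes all fell, with a median log2 fold change of -1.81, and their summed level was 549 ± 65.0 CPM in controls and 175 ± 33.7 CPM with PLX5622 (SD, n = 9 each). Neuronal markers summed to 6049 to 6779 CPM in every control library and to 6156 to 6723 CPM with PLX5622. Control 3 held the highest control value in 16 of the 29 tested vascular genes, and PLX5622 27 the highest value of its diet in 10. Values without Control 3 are given where a result rests on it, and for some genes also values without PLX5622 27.

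None of the 29 tested vascular genes was called in either direction by edgeR's quasi-likelihood test with Benjamini-Hochberg adjustment, against 0.353% of all tested genes called lower, 0.0452% called higher and 0.398% in either direction. DESeq2, run as an alternative, also called 0 of the members, against 0.397% of the 18125 genes to which it gave an adjusted p. It gave none to Egfl7. At an unadjusted p under 0.05, 2 of the 29 tested members (Tek and Ptprb) passed, both lower with PLX5622. That was 6.90% of them, against 3.22% of all tested genes lower and 6.79% in either direction. Fold changes were negative in 18 members and positive in 11, with a median log2 fold change of -0.04 beside 9.9e-05 over all tested genes. The ranges of the groups overlapped in all 37 members, while 0.199% of tested genes had groups that did not overlap.

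The precision of these libraries sets how much change could have been missed. The standard error of the log2 fold change ran from 0.05 to 0.22 over the 29 members. In 28 of 29 the 95% confidence interval lay inside a 1.5-fold change in either direction, and in all 29 it lay inside a 2-fold change. Nostrin, a regulator of endothelial nitric oxide synthase, was the exception, with a log2 fold change of 0.23 ± 0.22 (SE) and an upper bound of 0.66. In simulated counts for the same comparison over 10941 genes, the test recovered 50% of genes changed 1.25-fold and 86% of those changed 1.5-fold. It recovered 100% of those changed 2-fold and 98% of those changed 3-fold. The changed genes were drawn from all tested genes, not from the members. The simulation also gave 174 calls where the real libraries gave 44, which makes the adjusted threshold easier to pass. These shares can therefore overstate what was detectable among the members. In bulk tissue a lower value from fewer vascular cells cannot be told apart from less RNA in each cell.

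**Figure D1:**
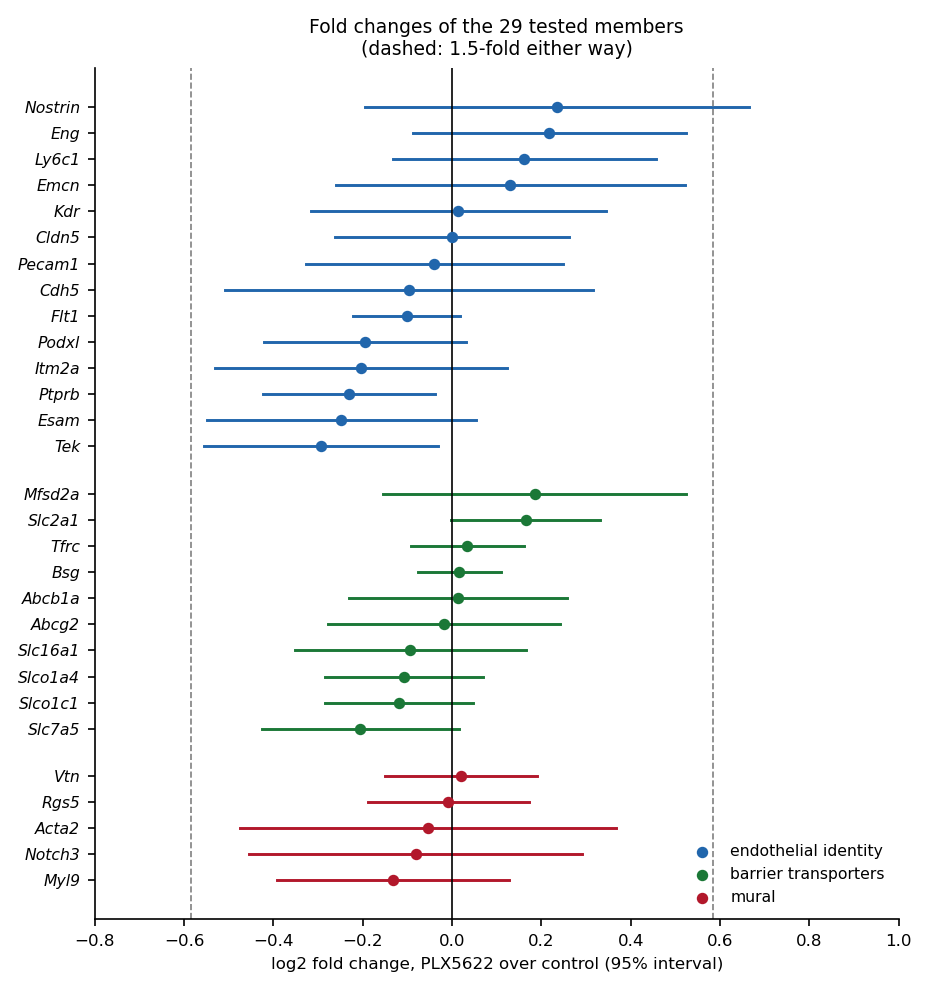
Points are log2 fold changes of PLX5622 over control for the 29 tested members and lines are 95% confidence intervals, with dashed lines at 1.5-fold in either direction. The intervals of 27 members include no change, and only that of Nostrin reaches past 1.5-fold.

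Among the 14 tested endothelial genes, 9 had negative and 5 positive fold changes, with a median log2 fold change of -0.07 and a range of -0.29 to 0.23. The median was -0.20 over the 4 of them that averaged 50 counts or more, and ran from -0.10 to -0.03 without 1 library. Cldn5, the main tight junction claudin of brain endothelium (chromosome 16, 18776847 to 18778262, GRCm38), had 18.6, 25.0 and 44.0 CPM as lowest, median and highest value in controls. With PLX5622 the corresponding values were 20.2, 25.8 and 37.6 CPM. The range with PLX5622 lay inside that of the controls, and the means were 27.7 ± 7.41 CPM in controls and 27.4 ± 5.66 CPM with PLX5622 (SD, n = 9 each). The log2 fold change was -0.00073 ± 0.13 (SE), with a 95% interval of -0.26 to 0.26 (edgeR's quasi-likelihood test, adjusted p = 1.00). Control 3 was the highest control library, and without it the log2 fold change was 0.11.

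The receptors of vessel growth and stability were measured with different depth. Flt1 encodes VEGFR1, a receptor that binds VEGF and limits its signal. It had 139, 149 and 182 CPM as lowest, median and highest value in controls and 130, 145 and 165 CPM with PLX5622. The groups overlapped over most of their range, and the log2 fold change was -0.10 ± 0.06 (SE, edgeR adjusted p = 0.809). Kdr, the main signalling receptor for VEGF, had means of 15.1 and 15.2 CPM and a log2 fold change of 0.01.

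Tek, also known as Tie2, is the angiopoietin receptor that holds endothelium in a quiescent state (chromosome 4, 94739289 to 94874976). In controls its lowest, median and highest values were 18.6, 23.4 and 28.6 CPM. With PLX5622 they were 11.5, 18.6 and 25.2 CPM. Of 9 libraries with PLX5622, 8 lay below the control median, although the ranges overlapped. The log2 fold change was -0.29 ± 0.13 (SE), with an interval of -0.55 to -0.03, and the edgeR adjusted p over all genes was 0.645.

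Ptprb, or VE-PTP, is the phosphatase that restrains Tek and steadies junctions between endothelial cells (chromosome 10, 116275523 to 116389535). Its control values ran from 41.1 to 58.7 CPM with a median of 44.3, and those with PLX5622 from 32.2 to 50.7 CPM with a median of 39.6. Again 8 of 9 libraries with PLX5622 lay below the control median and the ranges overlapped. The log2 fold change was -0.23 ± 0.10 (SE), with an interval of -0.42 to -0.04 and an edgeR adjusted p of 0.579, the lowest among the members. Control 3 was the highest control library for both genes. Without it the log2 fold changes were -0.25 for Tek and -0.19 for Ptprb, and both adjusted p-values from edgeR's test were at least 0.853. In that fit 0 of 29 members had an unadjusted p under 0.05, against 6.04% of all genes. Without PLX5622 27 the log2 fold change of Ptprb was -0.29. Over all fits without 1 library Ptprb ran from -0.29 to -0.19 and Tek from -0.36 to -0.23. The smallest adjusted p-values of edgeR's test in these fits were 0.324 for Ptprb and 0.532 for Tek.

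Podxl codes for podocalyxin, a sialomucin of the luminal endothelial surface. Its values were 30.7, 35.5 and 57.5 CPM (lowest, median, highest) in controls and 23.6, 36.1 and 41.8 CPM with PLX5622. The mean was lower with PLX5622 but the median was not, and 5 of 9 libraries with PLX5622 lay above the control median. The log2 fold change of -0.20 ± 0.11 (SE) did not pass the test (edgeR adjusted p = 0.808).

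Itm2a, a membrane protein gene enriched in brain endothelium, had 35.7, 51.4 and 90.4 CPM in controls and 29.9, 45.7 and 52.2 CPM with PLX5622, again as lowest, median and highest. The control group was much the wider because Control 3 held 90.4 CPM and the next control 63.0 CPM. With all libraries the log2 fold change was -0.20 ± 0.16 (SE, edgeR adjusted p = 0.889), and without Control 3 it was -0.07.

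The remaining tested endothelial genes also did not pass the test. Pecam1, a junctional adhesion molecule of all endothelium, had means of 17.6 and 16.9 CPM (log2 fold change -0.04), and Cdh5, the endothelial cadherin, had 8.34 and 7.97 CPM (-0.10). Esam, another junctional adhesion molecule, had 18.5 ± 4.02 CPM in controls and 15.6 ± 3.74 CPM with PLX5622 (SD), with a log2 fold change of -0.25 ± 0.15 (SE). Positive values were found for Eng, a co-receptor for BMP ligands (0.22), for the surface antigen gene Ly6c1 (0.16) and for the sialomucin gene Emcn (0.13). The reads of Ly6c1 could be shared with its near-identical neighbour Ly6c2, for which 3 counts were recorded over all libraries.

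**Figure D2:**
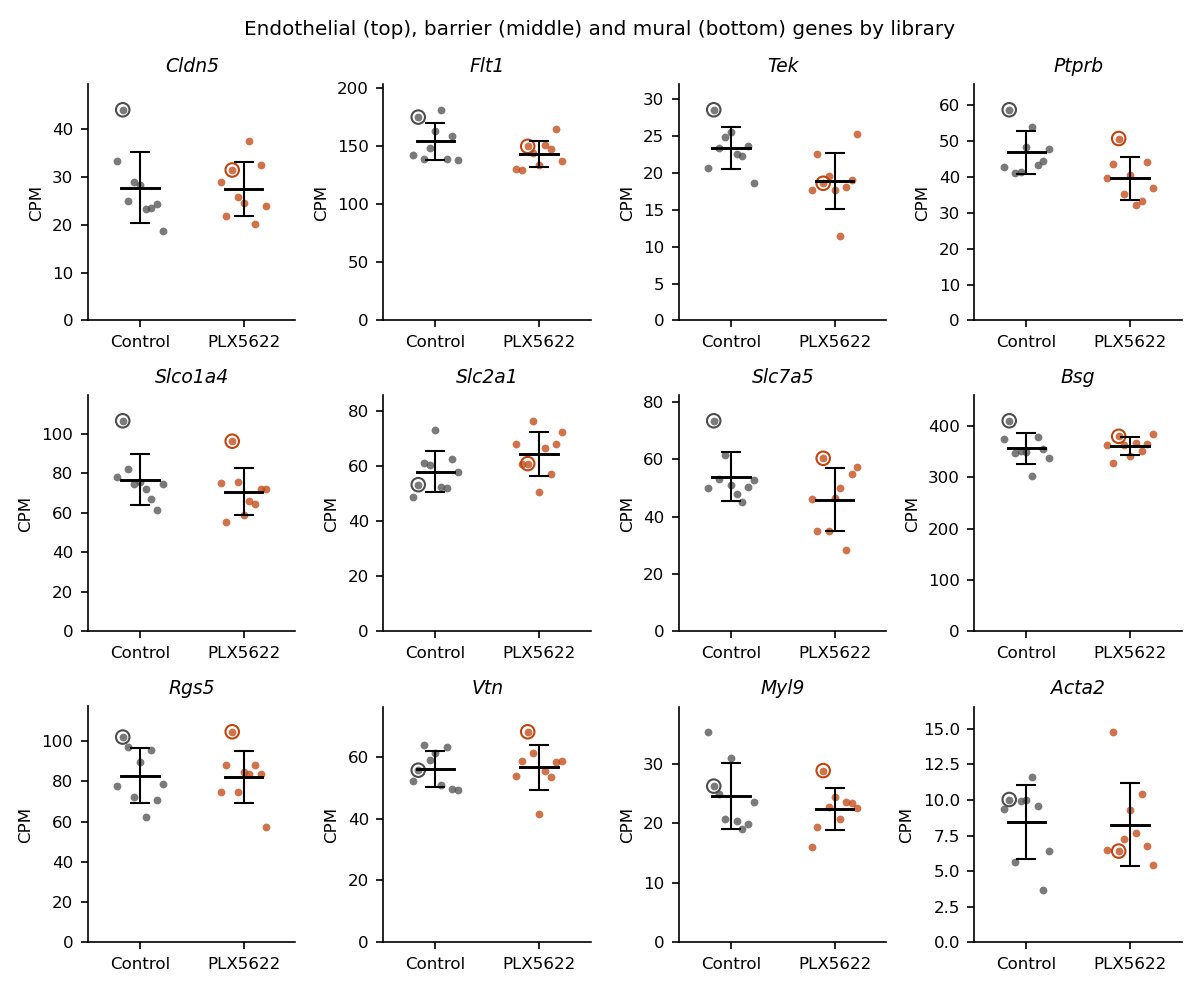
CPM of 12 members in each library, with the mean and SD of 9 libraries per diet. Open circles mark Control 3 and PLX5622 27. The groups overlap in every panel, and Control 3 is the highest control library in the panels of Cldn5, Tek, Ptprb, Slco1a4, Slc7a5, Bsg and Rgs5.

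A further 4 endothelial genes were below the depth needed for the main test, and their values are best read as counts. Sox17 and Sox18 encode transcription factors of endothelial specification, and Tie1 encodes the partner receptor of Tek. Tie1 had 96 counts in all controls and 65 with PLX5622, and Sox17 had 89 and 55. Mean levels were 7.98 ± 2.16 and 5.24 ± 2.20 CPM for Tie1, and 7.51 ± 1.98 and 4.52 ± 2.26 CPM for Sox17 (SD, n = 9 each). For each of these genes 8 of 9 libraries with PLX5622 lay below the control median, and the ranges overlapped. Without Control 3 the control means were 7.53 CPM for Tie1 and 7.39 CPM for Sox17.

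With no filter on low counts, edgeR's quasi-likelihood test gave a log2 fold change of -0.61 ± 0.24 (SE, adjusted p = 0.569) for Tie1. For Sox17 it gave -0.74 ± 0.26 (adjusted p = 0.330). The unadjusted p-values of that test were 0.012 for Tie1 and 0.0041 for Sox17. Neither gene passed at an adjusted p under 0.05, in a fit where 0.461% of genes were called. They are singled out here after their values were seen. Sox18 had 54 and 42 counts. Egfl7, a secreted endothelial protein, had 4 and 1, and 49.5% of its span is covered on its own strand by Gm20532 (chromosome 2, 26586639 to 26635634), so that its level cannot be read.

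The 10 barrier genes were all deep enough to be tested, and 5 had negative and 5 positive fold changes, with a median log2 fold change of -0.0027. Slc2a1 encodes GLUT1, the glucose carrier of brain endothelium (chromosome 4, 119108711 to 119137983). Its lowest, median and highest values were 48.7, 57.9 and 73.0 CPM in controls and 50.7, 66.7 and 76.5 CPM with PLX5622. With PLX5622, 7 of 9 libraries lay above the control median, and the ranges overlapped over nearly their whole width. Its log2 fold change was 0.16 ± 0.08 (SE), with an interval of -0.0022 to 0.33 (edgeR adjusted p = 0.745).

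Slc7a5 encodes LAT1, the carrier of large neutral amino acids. It had 45.25, 51.1 and 73.4 CPM in controls and 28.5, 46.4 and 60.3 CPM with PLX5622, as lowest, median and highest. The libraries with PLX5622 reached further down, and the ranges overlapped. A log2 fold change of -0.21 ± 0.11 (SE) did not pass (edgeR adjusted p = 0.772). It was -0.14 without Control 3, the highest control library, and -0.26 without PLX5622 27, the highest of its diet.

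Slco1a4 and Slco1c1 encode organic anion transporters of the barrier, the latter a carrier of thyroxine. They lie 235263 bp apart on chromosome 6, with Slco1a4 at 141805440 to 141856199. Slco1a4 had 61.3, 74.5 and 107 CPM in controls and 55.3, 71.9 and 96.2 CPM with PLX5622. Its highest control library was Control 3 and its highest with PLX5622 was PLX5622 27, each well above the next library of its diet. The log2 fold change was -0.11 ± 0.09 (SE, edgeR adjusted p = 0.894). It was -0.04 without Control 3 and -0.18 without PLX5622 27.

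Slco1c1 had 48.7, 62.8 and 74.9 CPM in controls and 47.1, 57.6 and 63.3 CPM with PLX5622. Of 9 libraries with PLX5622, 8 lay below the control median, within the range of the controls except for 1 library at the lower end. Its log2 fold change was -0.12 ± 0.08 (SE, edgeR adjusted p = 0.861). Across the 18 libraries the deviations of both neighbours from their diet means correlated with r = 0.18.

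Bsg and Tfrc gave the narrowest intervals of the class. Bsg, or basigin, is the chaperone of monocarboxylate transporters, and it had 302, 351 and 410 CPM in controls and 328, 364 and 385 CPM with PLX5622. Tfrc, the transferrin receptor that carries iron across the endothelium, had 90.3, 107.5 and 124 CPM in controls and 98.2, 111 and 127 CPM with PLX5622. The range of Bsg with PLX5622 lay inside that of the controls, and the groups of Tfrc overlapped over most of their range. The log2 fold changes were 0.02 ± 0.05 for Bsg, with an interval of -0.08 to 0.11, and 0.03 ± 0.06 for Tfrc, with an interval of -0.09 to 0.16 (SE, edgeR adjusted p = 0.988 and 0.972).

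The efflux pumps Abcb1a (P-glycoprotein) and Abcg2 had log2 fold changes of 0.01 ± 0.12 and -0.02 ± 0.13 (SE). The close paralog Abcb1b had 218 counts in all against 679 for Abcb1a, and reads of both could be exchanged. Mfsd2a, the endothelial carrier of lipids with docosahexaenoic acid, had means of 11.6 ± 2.36 and 13.2 ± 3.64 CPM (SD) and a log2 fold change of 0.18 ± 0.17. For Slc16a1, the monocarboxylate carrier MCT1, the log2 fold change was -0.09 ± 0.13, and 21.6% of its span is overlapped on its strand by Gm43581 and Gm43585. Several barrier genes are also transcribed outside the endothelium, Bsg and Tfrc in neurons among them, so that their level in bulk cortex is not that of vessels alone.

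Of the 5 tested mural genes, 4 had negative and 1 had a positive fold change, with a median log2 fold change of -0.05. Rgs5, a regulator of G protein signalling that marks pericytes (chromosome 1, 169655501 to 169695813), had 62.5, 78.6 and 102 CPM in controls and 57.3, 83.6 and 105 CPM with PLX5622, as lowest, median and highest. Vtn, which codes for vitronectin and in brain is largely a pericyte product, had 49.3, 55.6 and 63.7 CPM in controls and 41.4, 58.4 and 68.0 CPM with PLX5622. In both genes the range with PLX5622 enclosed that of the controls. The log2 fold changes were -0.0084 ± 0.09 and 0.02 ± 0.09 (SE), with intervals of -0.19 to 0.17 for Rgs5 and -0.15 to 0.19 for Vtn (edgeR adjusted p = 0.998 and 0.994).

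Genes of contractile mural cells were less precisely measured. Myl9, a myosin light chain of smooth muscle, had 19.1, 23.6 and 35.4 CPM in controls and 16.0, 22.7 and 28.9 CPM with PLX5622. Acta2, smooth muscle actin, had 3.69, 9.56 and 11.6 CPM in controls and 5.46, 7.24 and 14.8 CPM with PLX5622. Notch3, the receptor that maintains arterial mural cells, had 6.63, 10.8 and 16.9 CPM in controls and 6.23, 10.7 and 12.2 CPM with PLX5622. The groups overlapped in all 3 genes, and the log2 fold changes were -0.13 ± 0.13, -0.05 ± 0.21 and -0.08 ± 0.19 (SE), in that order, none of which passed edgeR's test.

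The other 4 mural genes were too low for the main test. Abcc9, the sulfonylurea receptor subunit of pericyte potassium channels, had 82 counts in controls and 68 with PLX5622, and lies 731663 bp from Slco1a4. Tagln, a smooth muscle actin-binding protein, had 45 and 45, the pericyte gene Higd1b had 28 and 24, and Anpep, the pericyte surface aminopeptidase CD13, had 25 and 35. With no filter on low counts their log2 fold changes ran from -0.32 to 0.42, and none passed edgeR's quasi-likelihood test with Benjamini-Hochberg adjustment.

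Libraries of one diet differed from each other more for some members than reading depth alone gives. The ratio of the variance within diets to that of counting had a median of 1.22 over the 29 members and of 1.21 over all tested genes. Itm2a (4.29), Rgs5 (2.99), Slco1a4 (2.82), Slc7a5 (2.71), Ly6c1 (2.46), Bsg (2.297), Podxl (2.16) and Cldn5 (2.14) had ratios above 2, while 16 of 29 members lay under 1.5. The members with high ratios thus come from all 3 classes.

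Among the controls a single library was often the highest. Control 3, chosen for description after its values were seen, held the highest control value in 16 of the 29 tested members, or 55.2%, against 11.6% of all 11051 tested genes. Among them were 8 of 14 endothelial, 7 of 10 barrier and 1 of 5 mural genes. Its summed endothelial genes reached 619 CPM where the other 8 controls lay between 415 and 525 CPM, and its barrier genes 951 CPM where the others lay between 706 and 809 CPM. Its mural sum of 226 CPM was close to the next highest control at 222 CPM.

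Markers of some other cells in Control 3 were also high. The microglial sum was 707 CPM beside 493.2 to 580.2 CPM in the other 8 controls, border macrophage markers summed to 36.3 CPM beside 21.0 to 32.2 CPM, and fibroblast markers to 165 CPM beside 100 to 155 CPM. Markers of oligodendrocyte precursors were lowest of all controls, at 61.8 CPM beside 70.2 to 107 CPM. Red blood cell genes lay within the range of the others, at 197 CPM. So did astrocyte and endfoot markers, at 3221 CPM beside 3210 to 3550 CPM, and neuronal markers, at 6449 CPM beside 6049 to 6779 CPM. Markers of oligodendrocytes, choroid plexus and ependyma were within the range of the other controls too. The part of these in the vascular values of Control 3 was not tested. Without this library the median log2 fold changes were -0.04 for endothelial, 0.04 for barrier and -0.02 for mural genes, with 14 of 29 negative and 0 called by edgeR's quasi-likelihood test.

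With PLX5622, library 27 held the highest value in 10 of 29 tested members, or 34.5%, against 9.24% of all tested genes. It was the highest of its diet in 4 of 5 mural genes. The mural sum was 237 CPM beside 168 to 204 CPM in the other 8, and the barrier sum 857 CPM beside 737 to 831 CPM. The endothelial sum, 479.2 CPM, was just below the highest of the others, 479.5 CPM. Among further vascular lists described below, its junction protein sum was the lowest of its diet, at 525 CPM beside 541 to 632 CPM. Its sums of further mural, basement membrane and activated, venous or fenestrated endothelial genes were the highest. Red blood cell genes were lowest of that diet, at 33.4 CPM beside 170 to 368 CPM, and oligodendrocyte markers too, at 1063 CPM beside 1103 to 2198 CPM. The part of either in the mural values was not tested.

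Averaged over the tested members of a class, endothelial genes stood at a log2 CPM of 4.57 ± 0.17 in controls and of 4.53 ± 0.11 with PLX5622 (SD, n = 9 each). For barrier genes it was 5.70 ± 0.12 and 5.68 ± 0.07, and for mural genes 4.74 ± 0.17 and 4.70 ± 0.11. All 3 differences between diets were smaller than the spread of libraries within a diet. The highest control mean was in Control 3 for endothelial and barrier genes and in Control 7 for mural genes.

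**Figure D3:**
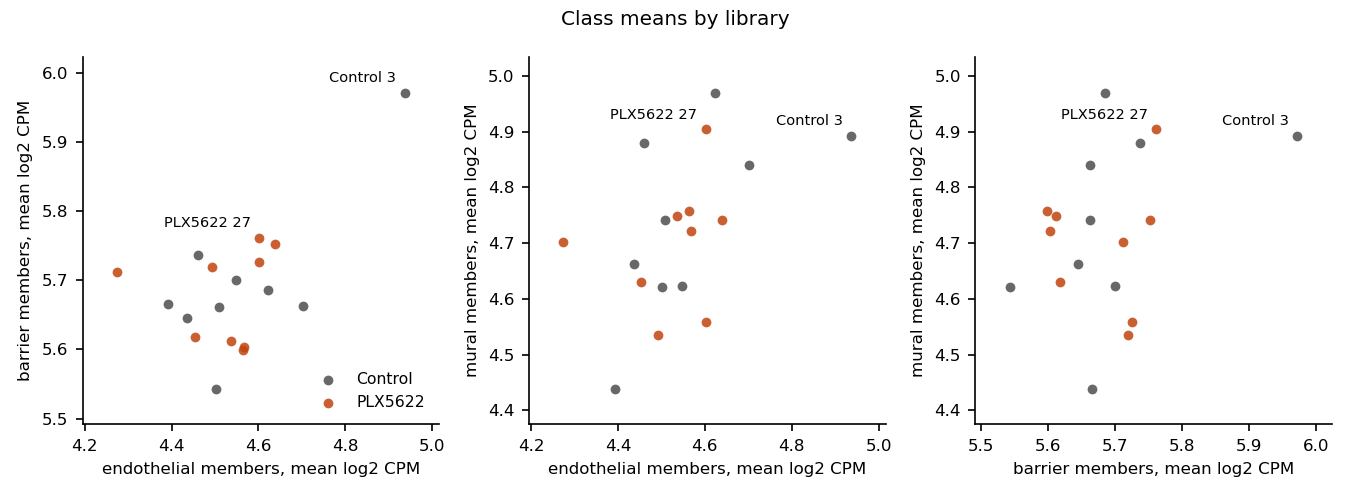
Each point is a library, placed by the mean log2 CPM of its tested members in a pair of classes. Control 3 lies alone at the upper right of the panel of endothelial and barrier genes, at 4.94 and 5.97, and the diets overlap in every panel.

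How the classes varied together across libraries is given as a description, since the means share libraries, depth and scaling. In controls the endothelial and barrier means correlated with Pearson's r = 0.75 and Spearman's rho = 0.40 over 9 libraries. This rested on Control 3: without it r was 0.06, and without the 2 libraries farthest from the median 0.08. With PLX5622 the same classes gave r = 0.10 and rho = 0.47, and r was 0.51 without PLX5622 31 and -0.07 without PLX5622 34.

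Endothelial and mural means correlated with r = 0.62 and rho = 0.65 in controls, between 0.52 and 0.75 whichever library was left out. With PLX5622 they gave r = 0.23 and rho = 0.43, and r was 0.46 without PLX5622 31 and 0.08 without PLX5622 27. Barrier and mural means had r = 0.46 and rho = 0.53 in controls, and r = 0.02 and rho = -0.08 with PLX5622, where leaving out library 27 gave r = -0.44. The difference in r between the diets was not tested.

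Class means were also correlated, within each diet, with the mean log2 CPM of the tested markers of other cells. Total counts, the percentage of mitochondrial counts and animal order were set beside them too. The values given here were picked after all were seen, mostly for their size. Others lay near 0, such as the mural mean with oligodendrocyte markers (r = 0.11 in controls and 0.0040 with PLX5622). The endothelial and barrier means correlated with the microglial marker mean at r = 0.64 and 0.71 in controls, and at r = -0.12 and -0.10 without Control 3. The endothelial mean and the oligodendrocyte precursor markers gave r = -0.61 in controls and -0.23 without Control 3. The barrier mean and astrocyte and endfoot markers gave r = 0.39 in controls and 0.83 without Control 3, and r = -0.02 with PLX5622, where the endothelial mean gave 0.59 with the same markers. With PLX5622 the barrier mean correlated with the log2 total count at r = 0.70, and the mural mean with red blood cell genes at r = -0.61. Their part in the covariation of the classes was not tested.

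At the level of single genes, deviations from the diet means were compared over all 18 libraries. Among 406 pairs of tested members the median r was 0.15 and 69.5% were positive, beside a median of -0.002 and 49.8% positive over all pairs of tested genes. Pairs within the endothelial class had a median r of 0.18, within the barrier class 0.10 and within the mural class 0.16, and endothelial with barrier pairs had 0.16. Pairs across the classes thus had medians close to those within a class, a comparison made without a test. Without Control 3 the median over the 406 pairs was 0.07, with 57.6% positive.

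The pair with the highest r was Ly6c1 and Bsg at 0.72, followed by Itm2a and Abcg2 at 0.69. Itm2a had the highest mean correlation with the other 28 members, at 0.28. Mfsd2a stood at the other end with a mean r of -0.22 and only 4 of 28 positive, including r = -0.61 with Pecam1 and -0.54 with Slc16a1. Acta2 and Notch3, both of arterial mural cells, were also opposed, at r = -0.59, whereas Acta2 and Myl9 gave 0.07.

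**Figure D4:**
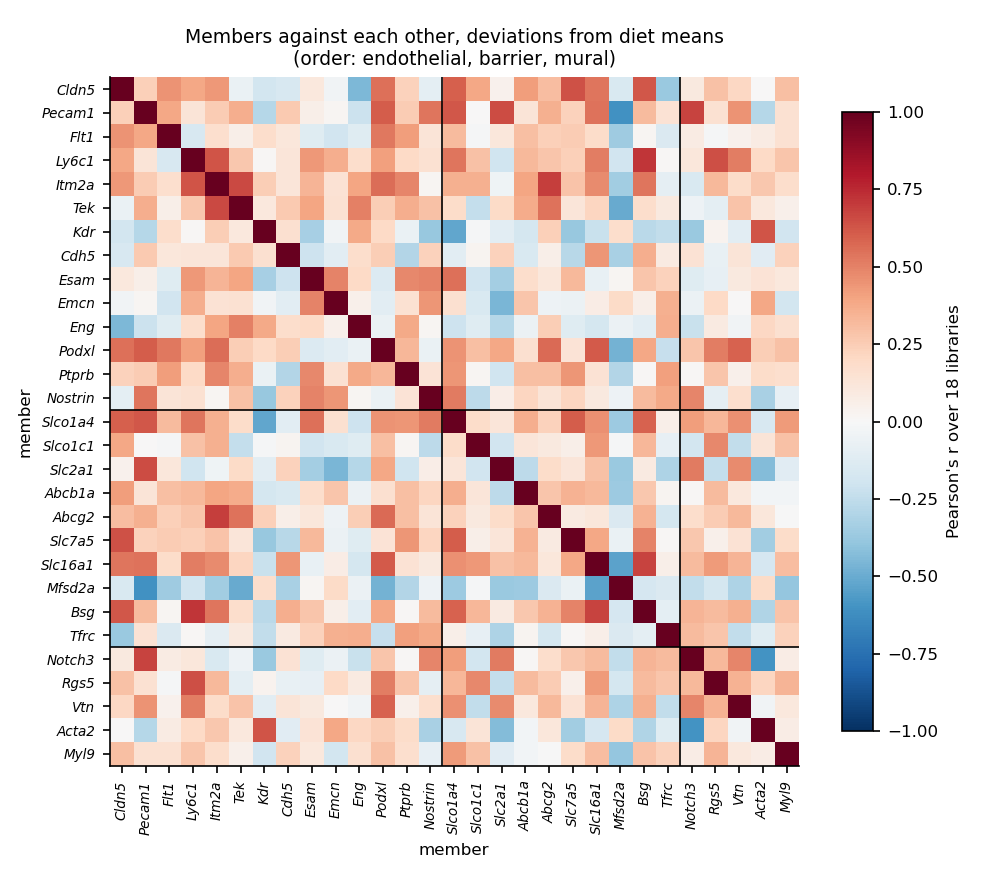
Colours give Pearson's r between the deviations of 2 members from their diet means over 18 libraries, with members ordered by class and lines between the classes. Red cells outnumber blue ones across the whole grid, and the row of Mfsd2a is mostly blue.

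For single genes, 6 pairs, 1 for each class and pair of classes, were tested within each diet, which makes 12 tests. None passed: the smallest Benjamini-Hochberg adjusted p was 0.267 for Pearson's r and 0.232 for Spearman's rho in exact permutation tests over all orders of 9 libraries. In controls Cldn5 and Slco1a4 had r = 0.73 (two-sided exact permutation p = 0.0378, adjusted 0.267) and rho = 0.72 (exact p = 0.0369, adjusted 0.232). The relation weakened to r = 0.50 without the 2 libraries farthest from the median of Cldn5 (0.13 at a prior count of 5), and to 0.29 without Control 3. With a line on animal order removed r was 0.40 and rho was 0.15 (exact permutation p = 0.289 and 0.708). With PLX5622 the same pair gave r = 0.46 and rho = 0.45 (exact permutation p = 0.212 and 0.230).

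Vtn and Rgs5, both of pericytes, had r = 0.67 and rho = 0.60 in controls (exact permutation p = 0.0553 and 0.0968, adjusted 0.267 and 0.232), and r = 0.47 without the 2 farthest libraries. With PLX5622 they had r = 0.10 and rho = -0.13 (exact permutation p = 0.750 and 0.743). Slco1a4 and Vtn gave r = 0.65 with PLX5622 (exact permutation p = 0.0669, adjusted 0.267), and r = 0.84 without the 2 farthest libraries. Their r was 0.45 without PLX5622 27, the highest library of its diet in both genes, and 0.86 without PLX5622 26. The other tests, on Cldn5 with Flt1, Slco1a4 with Slc2a1 and Cldn5 with Vtn, and Slco1a4 with Vtn in controls, gave r from -0.19 to 0.53. Of these, Slco1a4 with Slc2a1 with PLX5622 had r = 0.40 and rho = 0.65 (exact permutation p = 0.280 and 0.0666, adjusted 0.523 and 0.232). Its r was 0.92 without the 2 farthest libraries, 0.79 without PLX5622 27 and 0.20 without PLX5622 29. Cldn5 with Flt1 with PLX5622 had r = 0.53 and rho = 0.62 (exact permutation p = 0.138 and 0.0857, adjusted 0.415 and 0.232), and r = 0.75 without the 2 farthest libraries.

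The genes whose deviations were most like those of a reference gene from each class were sought among the 9136 tested genes that averaged 20 counts or more per library. For Cldn5 these were Ifi27, Pnpla6, Mrpl55, Sf3b5 and Ggt7, with r from 0.77 to 0.71 over 18 libraries. For Slco1a4 they were Stk39, Igfbp7, Ypel5, Tmem160 and Ccnd3 (0.78 to 0.71), and for Vtn they included 2900052N01Rik, Zfp667, Grsf1 and Igfn1 (0.76 to 0.73). None of the genes named was shared between these 3 groups.

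Lists of further vascular genes, chosen by role, gave the surroundings of the members. Of 7 tested junction proteins 0 were called, with a median log2 fold change of 0.01, and the one with the smallest p was Ctnnd1, the catenin p120 (0.13 ± 0.09, SE), although 97.3% of its span is overlapped on its strand by Gm28635. Of 9 genes of Wnt and norrin signalling, which induces the barrier, 0 were called (median -0.04), with Tspan12, a co-receptor for norrin, at -0.22 ± 0.14. Growth factors and their receptors had 0 of 14 called (median -0.02), with the VEGF and semaphorin co-receptor Nrp2 at -0.24 ± 0.10. Endothelial transcription factors had 0 of 7 called (median -0.08), with Ets1 at -0.29 ± 0.17.

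Further transporters and receptors had 0 of 14 called (median log2 fold change -0.0089). Further mural genes had 0 of 7 called (median -0.15), with smooth muscle myosin Myh11 at -0.34 ± 0.21. Genes of activated, venous or fenestrated endothelium had 0 of 5 called (median 0.11). Of these, the chemokine-binding venular receptor Ackr1 had 9 of 9 libraries with PLX5622 above the control median and a log2 fold change of 0.23 ± 0.08 (SE, edgeR adjusted p = 0.349). On its strand 26.4% of its span is shared with Cadm3, whose part in this value was not tested.

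Sparc was the only called gene in these 8 further lists. It encodes a collagen-binding matrix protein made by endothelial cells and, in brain, also by microglia. Among the basement membrane genes it fell from 160 ± 28.9 to 102 ± 20.1 CPM (SD, n = 9 each), a log2 fold change of -0.63 ± 0.12 (SE, edgeR adjusted p = 0.026), and 9 of 9 libraries with PLX5622 lay below the control median. The microglial sum fell in the same libraries, and its part in the value of Sparc was not tested. Leaving out 1 library at a time gave adjusted p-values from 0.0013 to 0.055 in edgeR's test, of which 14 of 18 passed, and it passed in 7 of 8 other settings. The other 6 tested genes of the list ran from -0.12 to 0.10.

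At an unadjusted p under 0.05, 8 of the 70 tested genes in the 8 further vascular lists passed (11.4%, 5 lower and 3 higher), against 6.79% of all tested genes. They were 2 of 14 growth factors and their receptors, both lower, 3 of 14 further transporters and receptors (1 lower, 2 higher), 2 of 5 genes of activated, venous or fenestrated endothelium (1 lower, 1 higher) and Sparc. In the other 4 lists 0 passed.

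F11r, which codes for the junctional adhesion molecule JAM-A and is also transcribed in microglia, was too low for the main test, with 105 counts in controls and 45 with PLX5622. DESeq2 called it lower with a log2 fold change of -1.30 (adjusted p = 0.010), and so did edgeR's quasi-likelihood test with no filter on low counts, at -1.26 (adjusted p = 0.00048). All 9 libraries with PLX5622 lay below the control median of 8.28 CPM. It is named here after its values were seen, and the part of microglia in it was not tested.

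**Figure D5:**
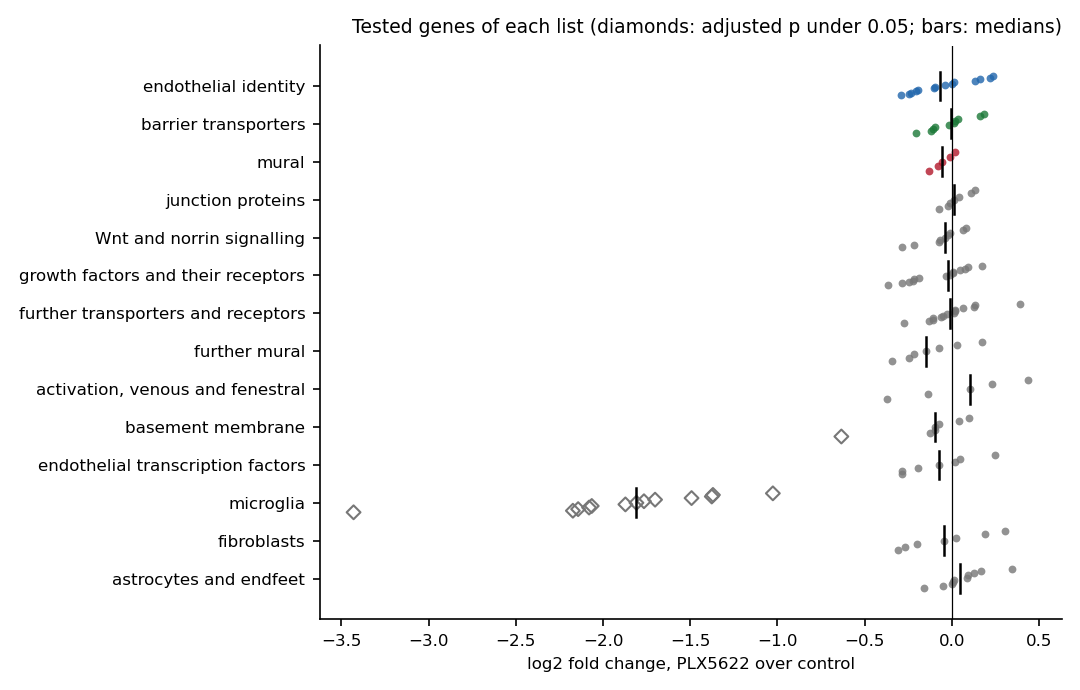
Each point is the log2 fold change of a tested gene, PLX5622 over control, diamonds are genes with an adjusted p under 0.05 in edgeR's quasi-likelihood test, and bars are list medians. The vascular lists centre near 0 with Sparc as the only diamond, and the microglial genes lie between -3.43 and -1.03.

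Cells next to the vessels were read from their markers. Fibroblast markers had 0 of 7 genes called with a median log2 fold change of -0.04 and sums of 100 to 165 CPM in controls and 75.05 to 154.8 CPM with PLX5622. Astrocyte and endfoot markers had 0 of 10 called (median 0.05). Border macrophage markers were too low for the main test, with 330 counts in controls and 75 with PLX5622, and DESeq2 called 3 of 8 lower. Red blood cell genes, which reflect blood left in the vessels, had 0 of 2 called and sums of 91.2 to 272 CPM in controls and 33.4 to 368 CPM with PLX5622, and their part in the vascular values was not tested. Choroid plexus was represented by Ttr alone among tested genes, with 62 counts in controls, 182 with PLX5622 and a log2 fold change of 1.49 ± 0.44 (SE) that did not pass edgeR's test (adjusted p = 0.283). Markers of oligodendrocytes (7 tested, median 0.05), of oligodendrocyte precursors (4 tested, median 0.17) and of neurons (7 tested, median 0.0094) also had 0 called. The genes with the smallest p in these lists had log2 fold changes of -0.27 ± 0.14 for Col1a2 (fibroblasts), 0.09 ± 0.05 for Slc1a3 (astrocytes), 0.56 ± 0.32 for Hbb-bt (red blood cells), -0.25 ± 0.14 for Opalin (oligodendrocytes), 0.32 ± 0.11 for Cacng4 (precursors) and 0.11 ± 0.09 for Nefm (neurons), all SE.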

How the data were processed

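RNA of medial prefrontal cortex was sequenced as single ends from the 3' end of transcripts on an Illumina HiSeq instrument, per the labels' protocols. The deposited values are whole-number counts per gene, 1 table per library. The submitters' processing notes name the aligner Bowtie2 (2.3.4.3), the counter HTSeq (0.11.0) and the build GRCm38.p6, also written mm10. No source used here gives their settings, the strand option, the annotation release or how duplicate reads were treated. Coding genes lying wholly inside another gene had no count in 446 of 446 cases when both share a strand, while 525 of 803 had counts when only the other strand was occupied, so reads of overlapping genes on a strand appear to be left out.

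Identifiers were matched to GENCODE M21 without version (53706 of 54547, the rest holding 0.0278% of counts). Genes were tested with edgeR 4.0.16 in R 4.3.3: low genes were removed by filterByExpr (counts of at least 10, total at least 15), libraries were scaled by TMM, the quasi-likelihood fit was robust, and p-values were adjusted by Benjamini-Hochberg over 11051 genes, with an adjusted p under 0.05 as threshold. Log2 CPM carried a prior count of 2. The fit was tested on simulated counts, where 7 of 174 calls were false. Alternatives were DESeq2 1.42.0, limma-voom 3.58.1, other scalings, filters, thresholds and prior counts, a covariate for the order of animal numbers within a diet, and leaving out each library.

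Groups came from the titles. Animals are numbered separately, and p-values measure the spread between these libraries. Across 153 library pairs the chi-square per degree of freedom was at least 1.13, above sampling noise, so none was treated as a duplicate. Members and lists were chosen with earlier results of these data known. Values in full were given for the 4 tested members with the smallest p and the 2 with the highest mean CPM in each class, for Cldn5, and in every other list for called genes and the gene with the smallest p. Low genes given by their counts, the remaining members and F11r were named outside that rule, after values were seen. Not every gene named by that rule is reported here.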

Additional observations from a re-analysis of the deposited data

Results flagged for a closer look

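Values of single libraries were compared with the others of their diet by Dixon's criterion in 80 groups of 9 libraries, 74 of them single members. In 7 groups 1 library stood apart, and chance gives about 1 in 20. Control 3 was high in Itm2a (90.4 CPM, next control 63.0), in Slco1a4 (107 CPM, next 82.3) and in Slc16a1 (41.7 CPM, next 27.3), and its mean log2 CPM over the barrier genes was 5.97 where the next control had 5.74. PLX5622 27 was high in Slco1a4 (96.2 CPM, next 75.5) and in Ly6c1 (37.2 CPM, next 25.8). Control 3 also held the highest microglial sum of the controls, and PLX5622 27 the lowest sum of red blood cell genes of its diet. The part of these in the values was not tested. Egfl7 had 0.615 CPM in PLX5622 34, which is 1 count, and 0 in the other libraries of that diet.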

How the results depend on the processing

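No paired analysis was possible because the diets share no animal numbers. Members called lower were 0 under each alternative except an unadjusted p under 0.05, which gave 2 of the 29 tested in the main fit. Members called higher were 0 throughout. For the 29 members of the main test the smallest adjusted p was 0.529 over other settings and 0.324 without 1 library. With no filter on low counts Sox17, outside the main test, had an adjusted p of 0.330 in edgeR's quasi-likelihood test. Of 215 fold changes under other settings 211 kept their sign. The exceptions were all Cldn5, at 0.016 with limma-voom, 0.0019 with library totals, 0.0024 with no filter and 0.0024 with the covariate for animal order.

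Without 1 library, 46 of 522 log2 fold changes had the opposite sign, in 12 members whose values lay near 0. Their lowest and highest values were -0.065 and 0.11 for Cldn5, -0.087 and 0.019 for Pecam1, -0.058 and 0.10 for Kdr, -0.18 and 0.0034 for Cdh5, -0.051 and 0.11 for Abcb1a, -0.076 and 0.036 for Abcg2, -0.17 and 0.0092 for Slc16a1, -0.011 and 0.043 for Bsg, -0.16 and 0.021 for Notch3, -0.063 and 0.048 for Rgs5, -0.020 and 0.061 for Vtn and -0.20 and 0.016 for Acta2.

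Genes called lower over all genes were 65 with DESeq2, 92 with no filter, 8 at a mean of at least 50 counts and 356 at an unadjusted p under 0.05. Genes called higher were 14 with limma-voom, 20 with no filter, 0 at a mean of at least 50 counts, 17 with the covariate for animal order, 10 at an adjusted p under 0.1, 394 at an unadjusted p under 0.05, and 2 to 13 without 1 library.

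The median log2 fold change of the classes ran, without 1 library, from -0.10 to -0.03 for endothelial, from -0.06 to 0.04 for barrier and from -0.09 to 0.02 for mural genes. At a mean of at least 50 counts it was -0.20 over 4 endothelial, -0.05 over 6 barrier and 0.0031 over 2 mural genes, since that filter leaves fewer members.

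The endothelial with barrier r of class means in controls ran from 0.056 to 0.83 without 1 library, and barrier with mural fell to 0.29 with a line on animal order removed. That line gave r = -0.16 for Cldn5 with Vtn and -0.047 for Slco1a4 with Vtn in controls. Without 1 library r ran from -0.093 to 0.30 and from -0.049 to 0.39 for these pairs, from -0.31 to 0.011 for Slco1a4 with Slc2a1 in controls, and from -0.30 to 0.33 for Vtn with Rgs5 with PLX5622. The cause was not tested. Scaling moved the median of all genes by under 0.02. Depth limits the 8 members that were not tested.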
